A study of Oryza sativa with 12 samples.

Results

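In rice embryonic axes measured on 12 microarrays, 142 of 57258 probe sets stood at a much higher signal in the arrays labelled 4H than in those labelled 0H, and reached nearly the same 4H signal whether the seeds had been kept at 25 °C or at 40 °C. A probe set is a group of short array probes for one transcript. The members were selected on their mean log2 signals by a rule with 3 conditions: a 4H mean at least 3.5 above the 0H mean at 25 °C, the same at 40 °C, and 4H means of the 2 temperatures less than 0.5 apart. The values of these 3 differences chose the members and are therefore given as a description, with no test. The annotation paired 102 of the 142 with exactly 1 gene, which gave 90 genes, and 40 were not listed in it. Of the 90 genes 18 had a usable short name, and for the others no function was given in the sources used here.

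All seeds were of Oryza sativa cultivar Nipponbare, with no transgene or mutant stated. Every group had 3 days of equilibration at 25 °C, then 14 days by the protocol (15 by the description) at 85% relative humidity, and then 3 days at 32% relative humidity. The second step ran at 25 °C, the control, or at 40 °C, the warm humid storage used to age seed. Each temperature has 3 arrays with the suffix 0H and 3 with the suffix 4H. The labels do not define the suffixes and do not say whether the replicates came from separate seed lots, so p-values measure only the spread between these arrays, which may be technical. The labels also mention storage at 45 °C, which is not analysed here.

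A dry cereal embryo holds stored transcripts, many of them for late embryogenesis abundant (LEA) proteins, which protect cell structures in the dry state. When an embryo takes up water it restarts respiration and begins to make new transcripts, and oxygen can run short inside the seed coat, so that fermentation enzymes are well known from germinating rice. Oxylipin, ethylene and auxin signalling and the loosening of cell walls are other known features of this period. Warm humid storage is used to lower the vigour of seed lots.

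The tissue label reads seed and the protocol names the embryonic axis. All 6 LEA genes that could be tested by symbol were called lower at 4H than at 0H at both temperatures, where 42.0% and 46.3% of all kept probe sets were. RAB21, a dehydrin gene, was at 13.07 and 13.10 at 0H and 12.72 and 12.47 at 4H after 25 °C and 40 °C. All 7 measured genes of seed storage proteins, seed allergens and starch, which mark the endosperm, the storage tissue of the grain, lay above log2 4 in every array. Their part in the members' signals was not tested. None of the 142 probe sets was paired with a gene of these 2 lists, of 4 amylase genes or of the 1 measured gene of green tissue, RBCS. In bulk tissue, fewer cells of a type and less RNA per cell cannot be told apart.

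At 0H most of the members had signals at the low end of the scale, and at 4H most stood high among all probe sets of the array. The median over the 142 members was 2.73, 2.47 and 2.43 in the 3 arrays of 25 °C at 0H, and 2.61, 2.45 and 2.55 in those of 40 °C. It was 7.44, 7.40 and 7.58 at 4H after 25 °C, and 7.44, 7.48 and 7.54 after 40 °C. Each 4H array lay above each 0H array in all 142 members, which the rule makes nearly certain. The median member was brighter at 4H than 92.7% to 93.5% of all probe sets of the array, most of which are dim. Only 26.4% to 27.7% of the probe sets, controls included, lay above log2 4 in a 4H array. Among the 17650 probe sets above log2 4 in at least 3 arrays, the upper quartile of the 4H means was 7.32 at both temperatures. The medians of the members' 4H means were 7.51 after 25 °C and 7.53 after 40 °C. The 4H means ran from 4.78 to 11.4, with 10 members above 10, 55 above 8 and 23 below 6.

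**Figure D1:**
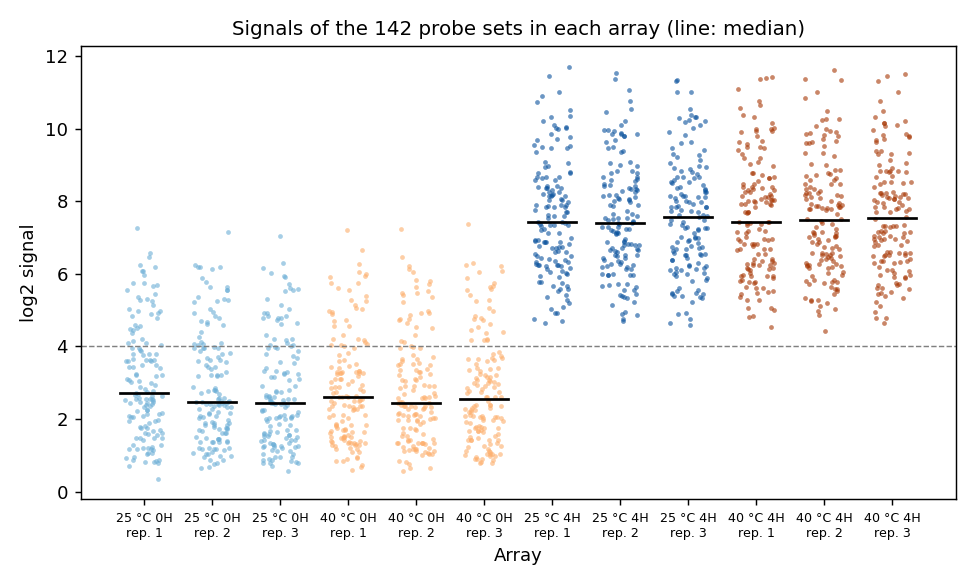
Log2 signal (vertical axis) of the 142 members in each of the 12 arrays (horizontal axis), 1 point per probe set, with a black line at the median and a dashed line at log2 4. The medians lie between 2.43 and 2.73 in the 6 arrays of 0H and between 7.40 and 7.58 in the 6 arrays of 4H, and the points spread over several log2 units in every array.

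A log2 signal of 4 was used as the lower limit of the filter on low values, and it is not a measured background. In 100 of the 142 members all 6 arrays of 0H lay below it, and in 26 all 6 lay at or above it. All members had all their 4H arrays above log2 4, so all 142 passed the filter through those arrays and had to differ from 0H. Where all 3 arrays of a 0H group lay below log2 4, the rise is given as at least the 4H mean minus 4. The deposited means gave a median rise of 4.48 at 25 °C (3.51 to 7.40) and of 4.51 at 40 °C (3.51 to 7.79), against −0.04 and −0.13 over all 17650 probe sets kept. With the limit in place the medians were 3.51 and 3.52. For the rises the fit called 39.9% of the kept probe sets higher at 25 °C and 41.0% at 40 °C, and all 142 members by selection, from which nothing is read.

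The rule takes a middle group out of a larger one. Of 663 probe sets that rose by at least 3.5 at 25 °C and 954 that did so at 40 °C, 422 did both. The 142 members are 33.6% of these, while 83 had a 4H mean lower at 40 °C by 0.5 or more and 197 a higher one. Just inside the limit on the rise lay LOC4335734 with a smaller rise of 3.51, LOC4327199 with 3.51 and BAT1 with 3.52. Just outside lay LOC4337462 with 3.49, LOC4334194 with 3.48 and LOC4342850 with 3.48. At the limit on the 4H difference, LOC4324374 at 0.487, LOC4333425 at −0.485 and LOC4323880 at −0.480 were members. Another probe set of LSD1 at −0.5001, LOC4332500 at 0.502 and OPR1 at 0.503 were not. The gaps at these edges are smaller than the spread between replicates, whose median SD over the members was 0.14 to 0.24 in the 4 groups.

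**Figure D2:**
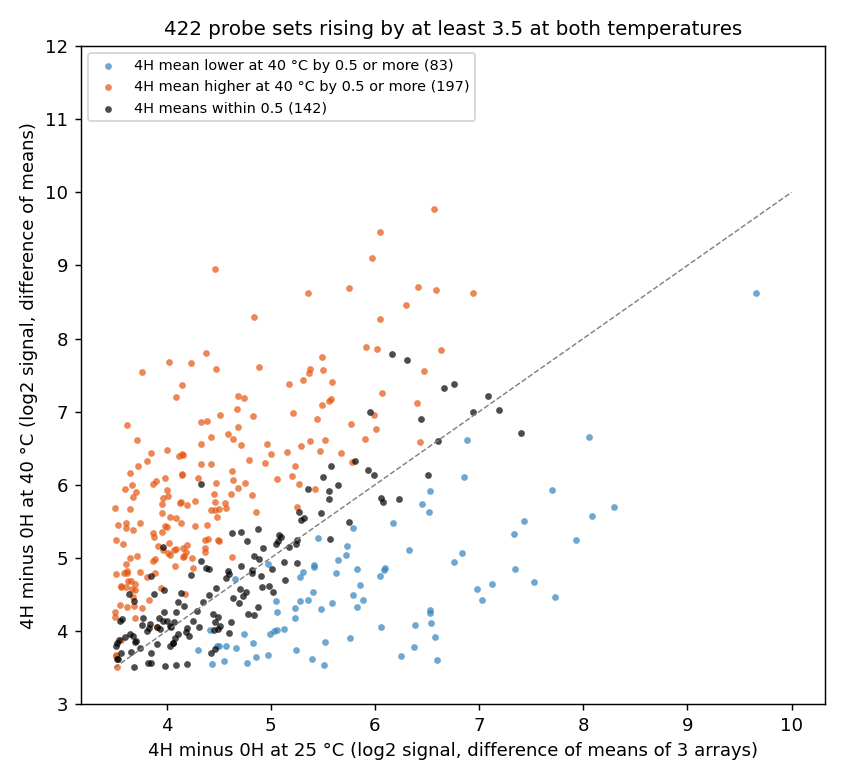
Rise from 0H to 4H at 25 °C (horizontal axis) and at 40 °C (vertical axis) as differences of mean log2 signals, for the 422 probe sets that rose by at least 3.5 at both. Black points are the 142 members, blue points the 83 that were lower at 40 °C at 4H and orange points the 197 that were higher. The dashed line marks equal rises, and several black points lie well above it because a rise also depends on the 0H mean.

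The 4H means of the members were close, but the rises were not always so. The 4H difference was under 0.25 either way in 77 of the 142. Its 95% interval in the limma fit had a median half-width of 0.368, lay inside ±1 for 133 members and inside ±0.5 for 46. The rule limits this difference, so these counts are partly set by it. The intervals are given for their width only and are no test. Close means at this precision do not show equal levels. The 3 arrays of one temperature lay wholly above those of the other at 4H in 50 members, against 76.3% of the kept probe sets. The fit called 19 members at 4H, which is 13.4% against 74.0% of the kept probe sets, and the rule sets this low share. The rises at 25 °C and 40 °C were more than 0.5 apart in 32 members and more than 1 apart in 5, with the larger rise at 40 °C in 84 and at 25 °C in 58. The fit of the difference between the rises called 25 members, or 17.6%, against 65.0% of the kept probe sets, and nothing is read from this, since the rule limits the means it is built from.

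PDC1 is a pyruvate decarboxylase gene of ethanol fermentation. Its signals were 5.26, 6.26 and 4.83 at 0H and 11.72, 11.55 and 11.32 at 4H after 25 °C, and 5.28, 5.84 and 5.63 at 0H and 11.36, 11.36 and 11.31 at 4H after 40 °C. The 0H groups overlapped and were well above log2 4, and the 4H groups overlapped too. Its rises of 6.08 and 5.76 are 67.6-fold and 54.2-fold. Of the 3 other genes of the fermentation and low oxygen list, all 3 were called higher at 4H by limma at each temperature, where 39.9% and 41.0% of all kept probe sets were. Of these 3, 2 are nonsymbiotic haemoglobin genes, which encode oxygen-binding proteins of plant cells, and both ended lower after 40 °C. From 0H means below log2 4, NSHB1 reached 10.09 at 25 °C and 7.54 at 40 °C, a difference of −2.55 (limma adjusted p = 3.08e-10). NSHB2 reached 10.67 and 8.33, a difference of −2.33 (adjusted p = 7.95e-05). The last of the 3, another gene listed as PDC, was already at 10.09 and 10.22 at 0H and rose by 1.60 at 25 °C and 0.72 at 40 °C.

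OPR5 belongs to the 12-oxophytodienoate reductases, a family of which some members work in jasmonate synthesis. Its signals at 4H were 9.70, 9.97 and 9.82 after 25 °C and 9.99, 9.93 and 9.78 after 40 °C, and these overlapped. At 0H they were 3.75, 3.498 and 3.75 after 25 °C and 1.81, 2.18 and 2.35 after 40 °C, below log2 4 in all 6 arrays and without overlap. The rise was at least 5.83 at 25 °C and 5.90 at 40 °C, or at least 57-fold and 59.6-fold. A second probe set of OPR5 was dimmer and rose by 2.17 and 2.61. Of the 7 other genes of the oxylipin and jasmonate list, 6 were called higher at 4H at each temperature. At 40 °C 1 was called lower, against a background of 46.3% for that direction, and at 25 °C none was, against 42.0%. The relatives OPR1 and OPR10 reached 11.21 and 10.05 at 4H after 25 °C and 11.71 and 11.09 after 40 °C. The 4H difference of OPR10 was 1.05 (limma adjusted p = 0.00819) and that of OPR1 0.50 (adjusted p = 0.238). OPR4 was 7.44 after 40 °C against 7.88 after 25 °C at 4H (adjusted p = 0.0186). The gene called lower at 40 °C was AOC3, an allene oxide cyclase gene, which changed by −0.89 (adjusted p = 2.78e-07).

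PSK5 encodes a precursor of phytosulfokine, a small secreted peptide hormone. Its signals were 6.58, 6.18 and 6.17 at 0H and 11.47, 11.37 and 11.35 at 4H after 25 °C, and 6.28, 6.04 and 6.23 at 0H and 11.42, 11.63 and 11.45 at 4H after 40 °C. The 2 temperatures overlapped at 0H and at 4H, and the rises of 5.08 and 5.31 are 33.9-fold and 39.8-fold. All its 0H arrays lay above log2 4.

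ETR2 encodes an ethylene receptor. Its signals were 8.15, 8.18 and 8.16 at 4H after 25 °C and 8.41, 8.19 and 8.39 after 40 °C. At 0H they were 3.59, 2.80 and 3.33 after 25 °C and 3.27, 3.29 and 3.02 after 40 °C. The 4H arrays of 40 °C lay above those of 25 °C by small margins. All 0H arrays lay below log2 4, and the rise was at least 4.16 and 4.33. A second ETR2 probe set stayed dim, at 1.61 and 2.11 at 4H. Of the 10 other genes of the ethylene and ERF list, 7 were called higher at 25 °C and 8 at 40 °C, and 1 and 2 lower, beside 39.9% and 41.0% higher and 42.0% and 46.3% lower over all kept probe sets. The receptor gene ETR4 changed by −3.01 at 25 °C and −4.09 at 40 °C (limma adjusted p = 6.4e-11 and 1.39e-12), and ERS1, another receptor gene, rose by 1.33 and 1.87 (adjusted p = 1.67e-10 and 2.35e-12). Members of 1 receptor family thus moved in opposite directions.

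IAA12, a gene of the Aux/IAA repressors of auxin response, was 5.19, 5.41 and 4.91 at 4H after 25 °C and 5.35, 5.83 and 5.70 after 40 °C. At 0H it lay between 0.82 and 1.62 in all 6 arrays, so its rise was at least 1.17 and 1.63, far less firm than the rises of 3.97 and 4.57 that the deposited means give. Of the 35 other genes of the auxin response list, 21 were called higher and 9 lower at 25 °C, and 15 higher and 13 lower at 40 °C, beside 39.9% and 41.0% higher and 42.0% and 46.3% lower over all kept probe sets. Their median rise was 0.43 at 25 °C and 0.13 at 40 °C, against −0.04 and −0.13 over all kept probe sets.

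Among transcription factor genes NLP3, a NIN-like protein of the family known for nitrate responses, was 8.20, 8.26 and 8.15 at 4H after 25 °C and 7.70, 7.80 and 7.80 after 40 °C. The 4H groups did not overlap, with 25 °C the higher. BZIP52, a bZIP factor gene, was 6.75, 6.49 and 6.69 at 4H after 25 °C and 6.40, 6.45 and 6.48 after 40 °C, with 0H arrays between 0.93 and 1.30 and a rise of at least 2.64 and 2.44. HOX2, a homeodomain-leucine zipper gene, was dim at 4H, with 4.93, 5.23 and 4.88 after 25 °C and 5.06, 4.87 and 4.94 after 40 °C, and its rise was at least 1.01 and 0.96. LSD1, a zinc finger gene named after an Arabidopsis gene that limits cell death, had a pair of member probe sets. The brighter was 8.67, 8.68 and 8.89 at 4H after 25 °C and 8.25, 8.47 and 8.52 after 40 °C, and the other was 7.85, 7.90 and 7.86 after 25 °C and 7.40, 7.75 and 7.52 after 40 °C. In both, every array of 25 °C lay above every array of 40 °C at 4H.

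Of the 18 named genes ADC1 and OsNrx1-2 have names of nitrogen and redox enzymes. ADC1 encodes arginine decarboxylase, an entry step of polyamine synthesis. Its brighter probe set was 6.47, 6.13 and 6.30 at 0H and 10.36, 10.45 and 10.03 at 4H after 25 °C, and 6.66, 6.47 and 6.30 at 0H and 9.91, 10.01 and 10.10 at 4H after 40 °C. The 0H groups overlapped, as did the 4H groups, and the rises were 3.98 and 3.53. A second probe set of ADC1 was dimmer at 4H, with means of 5.41 and 5.12, and was also a member. The other measured gene of the polyamine list, SAMDC (S-adenosylmethionine decarboxylase), changed by −0.31 at 25 °C and −1.30 at 40 °C (limma adjusted p = 0.000187 and 2.08e-11). OsNrx1-2, a nucleoredoxin of the thioredoxin family, was 9.71, 9.68 and 9.92 at 4H after 25 °C and 10.16, 10.28 and 10.16 after 40 °C. These groups did not overlap, and its 0H means of 5.99 and 6.02 lay close together.

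The names of CCR1, CSLC9 and PMEI28 point to lignin and the cell wall. CCR1, a cinnamoyl-CoA reductase gene of the path to lignin, was 4.90, 5.24 and 4.30 at 0H and 8.77, 8.67 and 8.93 at 4H after 25 °C, and 5.02, 4.73 and 4.52 at 0H and 9.21, 9.01 and 8.84 at 4H after 40 °C. Both pairs of groups overlapped, and the rises were 3.97 and 4.26. Of the 8 other genes of the phenylpropanoid list, 6 were called higher and 2 lower at 25 °C, and 3 higher and 3 lower at 40 °C, beside 39.9% and 41.0% higher and 42.0% and 46.3% lower over all kept probe sets. PAL, phenylalanine ammonia-lyase at the entry of the path, was 6.54 at 4H after 25 °C and 3.41 after 40 °C, the second below log2 4 (limma adjusted p = 1.3e-09). CSLC9, a cellulose synthase-like gene of the family linked to the xyloglucan backbone, was 7.91, 7.54 and 7.84 at 4H after 25 °C and 8.16, 7.88 and 7.98 after 40 °C, a rise of at least 3.76 at 25 °C and of 4.03 at 40 °C. PMEI28, a pectin methylesterase inhibitor gene, was 4.77, 4.86 and 5.37 at 4H after 25 °C and 5.07, 5.11 and 4.79 after 40 °C and between 0.78 and 1.12 at 0H, so its rise was at least 0.99 at 40 °C and slightly more at 25 °C. The cell wall loosening list held no member among its 15 genes, of which 12 were called higher and 2 lower at 25 °C and 7 higher and 4 lower at 40 °C, beside 39.9% and 41.0% higher and 42.0% and 46.3% lower over all kept probe sets.

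Of the 18 named genes ABCG48, PT8 and BAT1 have names of transporters. ABCG48, an ABC transporter gene, was 5.38, 5.04 and 5.03 at 0H and 8.98, 9.01 and 8.97 at 4H after 25 °C, and 4.91, 4.77 and 4.63 at 0H and 8.97, 8.80 and 8.81 at 4H after 40 °C, with rises of 3.84 and 4.09. PT8, a high-affinity phosphate transporter gene, was 5.93, 6.12 and 5.47 at 4H after 25 °C and 5.97, 5.96 and 5.74 after 40 °C. Its 0H arrays lay between 0.56 and 1.19, a rise of at least 1.84 and 1.89. Another PT8 probe set, not a member, stayed dim, with 4H means of 0.805 and 0.819. BAT1 is named for amino acid transport in Arabidopsis. Its dimmer member probe set was 6.92, 6.89 and 6.38 at 4H after 25 °C and 6.26, 6.53 and 6.58 after 40 °C. The rise there was at least 2.73 and 2.46. Its brighter member probe set had 4H means of 7.19 and 6.94 and rose by 3.52 and 3.62 on the deposited means. Other BAT1 probe sets stayed dim and moved by −0.02 and 0.15 at 25 °C and by 0.23 and 0.42 at 40 °C. The transporter list holds ABCG48 and PT8. Of its 35 other genes, 16 were called higher and 16 lower at 25 °C, and 18 higher and 16 lower at 40 °C. These shares are near the 39.9% and 41.0% higher and 42.0% and 46.3% lower over all kept probe sets. SPS2, a solanesyl diphosphate synthase gene of quinone side chains, was 6.61, 6.70 and 6.56 at 4H after 25 °C and 6.69, 6.69 and 7.01 after 40 °C, a rise of at least 2.62 and 2.80. The 31 symbol lists held at most 2 member genes each, 7 lists held any, and 23 lists with measured genes held none. The lists depend on which genes carry a symbol and do not describe whole families.

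**Figure D3:**
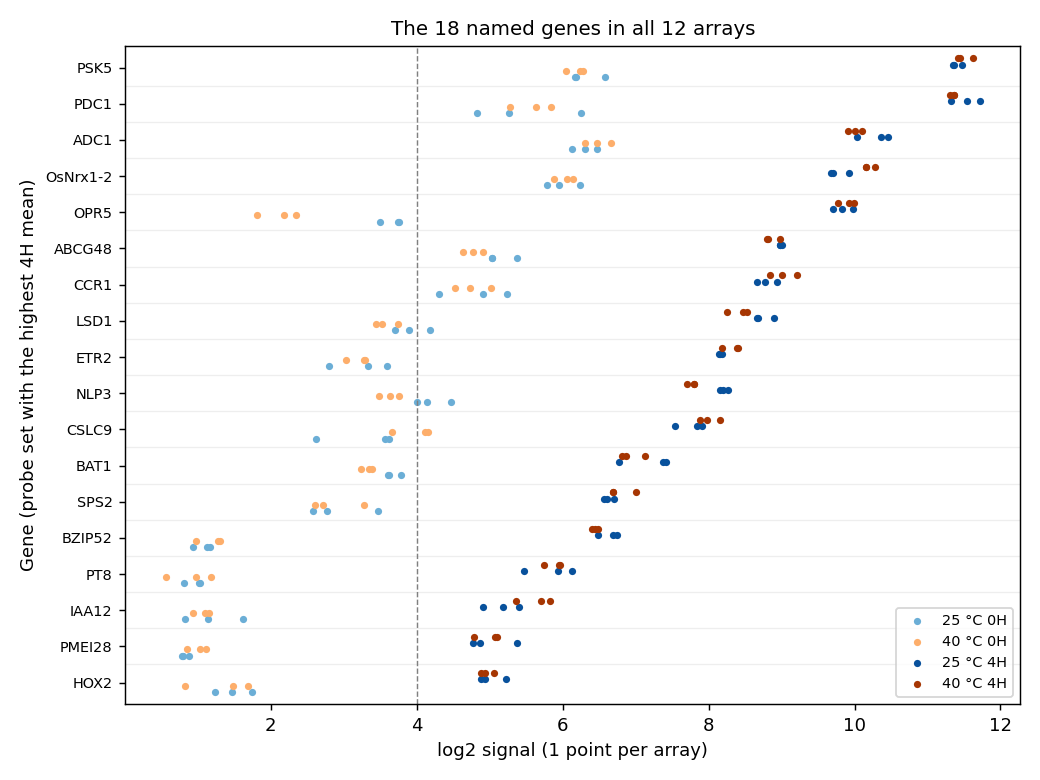
Log2 signal (horizontal axis) in each array for the 18 members with a usable short name (vertical axis, ordered by 4H mean, the brightest probe set of each), 1 point per array and 1 colour per group, with a dashed line at log2 4. The dark points of 4H lie to the right of all light points of 0H, and the light points of OPR5, all left of the dashed line, fall into 2 groups by temperature.

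Most of the largest rises, like most of the members, belonged to probe sets without a named gene. Only 18 of the 90 genes had a usable short name. LOC4330402 was 2.44, 2.46 and 2.40 at 0H and 10.06, 9.81 and 9.63 at 4H after 25 °C, and 2.63, 2.90 and 2.74 at 0H and 9.46, 9.61 and 9.30 at 4H after 40 °C. Its 0H arrays were all below log2 4, and the rise was at least 5.83 and 5.46, or 57-fold and 44-fold. A second probe set of LOC4330402, not a member, was dimmer and rose by 1.57 and 1.71. LOC4349190 was 5.04, 4.25 and 2.74 at 0H and 10.51, 10.11 and 10.34 at 4H after 25 °C, and 3.29, 2.61 and 3.37 at 0H and 10.76, 10.85 and 10.77 at 4H after 40 °C. Its 0H arrays of 25 °C ranged widely, and its rises were 6.31 at 25 °C and at least 6.79 at 40 °C. A second probe set of LOC4349190, not a member, was already at 7.11 and 7.23 at 0H after 25 °C and 40 °C. It rose by only 2.33 and 2.74, and its 4H difference was 0.54. LOC4334467 was 6.09, 4.78 and 4.83 at 0H and 11.03, 11.07 and 11.02 at 4H after 25 °C, and 5.05, 5.41 and 4.84 at 0H and 11.41, 11.38 and 11.50 at 4H after 40 °C. Its rises of 5.81 and 6.33 did not depend on the limit. Its second probe set, not a member, was dim, rose by 0.32 and 1.52 and had a 4H difference of 1.06. LOC4327868, LOC4338117 and LOC9269224 lay below log2 4 in all 0H arrays. Their rises were at least 4.31, 3.46 and 3.08 at 25 °C and at least 4.76, 3.63 and 3.20 at 40 °C. Of all members 44 had a mean rise above 5 and 16 above 6 on the deposited values.

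Several members lay near each other in the genome. By gene order in a RefSeq table of the assembly ASM3414082v1, 89 member genes could be placed, and 13 of them (14.6%) had another member among the next 10 genes on either side. Among the other 11348 measured genes 6.27% had a member that near, and the difference was not tested. LOC4345736 and LOC107278748 on chromosome 8 were direct neighbours. LOC4345736 was 10.22, 10.22 and 10.28 at 4H after 25 °C and 10.66, 10.50 and 10.50 after 40 °C. LOC107278748 was 9.37, 9.47 and 9.28 at 4H after 25 °C and 9.42, 9.52 and 9.29 after 40 °C. On chromosome 10 LOC4349181, LOC4349190 and LOC4349193 were separated by 3 and 2 genes. LOC4339323 and LOC4339327 on chromosome 5 had 3 genes between them, and LOC4327199 and LOC4327208 on chromosome 1 had 5. Whether neighbours that are related copies share signal through their probes was not tested.

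Where a gene had several probe sets they did not always agree. Of the member genes 25 had 2 or more probe sets, 12 had 2 or more members and 7 had all their probe sets as members. The 24 probe sets of member genes that were not members included 12 that rose by more than 1 at both temperatures, 8 that moved by less than 1 at both and none that fell by more than 1. LOC4335304 was 7.64, 7.28 and 7.75 at 4H after 25 °C and 7.37, 7.15 and 7.17 after 40 °C in its member probe set, a difference of −0.33. Its other probe sets rose by 5.59 and 5.85 at 25 °C and were lower by 1.27 and 1.51 at 40 °C at 4H. Membership is thus a property of a probe set, and 38 members carry a suffix that the array design gives to probe sets whose probes can match more than 1 transcript.

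The difference between 40 °C and 25 °C at 0H is the comparison that the rule did not limit directly, although the 0H means enter both rises. It was tested with limma across all 17650 kept probe sets, with Benjamini-Hochberg adjusted p under 0.05 as a call. The fit called 20 of the 142 members, or 14.1%, against 17.7% of all kept probe sets, and 41 had an unadjusted p under 0.05. Of these 20, 5 were higher at 40 °C (3.52% against 5.99%) and 15 were lower (10.6% against 11.7%). The members' shares were near or below the background, and nothing is read from this. In 100 of the 142 members all 0H arrays lay below log2 4, and these passed the filter only through 4H arrays. The median 0H mean after 25 °C was 2.55 in the members, against 5.87 over all kept probe sets. The median difference between the temperatures at 0H was −0.05 (−1.55 to 0.71), against −0.01 over all kept probe sets. Of the similar sets, 5 of the 83 that ended lower at 40 °C and 24 of the 197 that ended higher were called at 0H, or 6.02% and 12.2%, and these shares were not tested against each other.

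OPR5 was called lower at 40 °C at 0H on the deposited values, with means of 3.67 ± 0.15 after 25 °C and 2.11 ± 0.28 after 40 °C (SD, n = 3, limma adjusted p = 9.5e-06). Since both lie below log2 4, no size is given, and with such values set to 4 the call was lost. The dimmer probe set of OPR5 was at 1.19 and 1.13 at 0H, a difference of −0.06. A lower 0H mean after 40 °C was not particular to OPR5. Its relative OPR1, just outside the rule, had a 0H difference of −1.71 on the deposited means. The 0H differences of OPR4 and OPR10 are not given here. LOC4328720 was 4.93, 4.61 and 4.20 after 25 °C and 3.10, 3.54 and 3.35 after 40 °C at 0H in one probe set, which did not overlap (adjusted p = 0.000212). Its difference was −1.25 (SE 0.16) on the deposited values and −0.58 with values below log2 4 set to 4. Another member probe set of LOC4328720 was 5.73 and 5.54, a difference of −0.19. The 2 probe sets of LOC4341944 differed likewise. One was 3.51 ± 0.29 after 25 °C and 2.08 ± 0.45 after 40 °C (adjusted p = 0.00108), all below log2 4, and its call was lost with such values set to 4. The brighter one was 7.15 ± 0.10 and 7.27 ± 0.09 (adjusted p = 0.325). LOC4325290, also below log2 4 in all 0H arrays, was 2.25, 2.57 and 1.69 after 25 °C and 1.57, 1.26 and 1.58 after 40 °C (limma adjusted p = 0.0257). Its call was lost in 5 of 19 alternatives, among them values below log2 4 set to 4. The other probe set of LOC4325290 was 1.19 and 1.25, a difference of 0.06.

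NLP3 was 4.47, 4.13 and 4.005 after 25 °C and 3.75, 3.49 and 3.63 after 40 °C at 0H, and the difference of −0.58 (SE 0.12) was called (limma adjusted p = 0.00411). All 3 arrays of 40 °C lay below log2 4, and with such values set to 4 the difference was −0.20 and not called (adjusted p = 0.223). In ABCG48 the 0H groups were apart by a small margin, with a difference of −0.38 (SE 0.10, adjusted p = 0.0206) at signals above log2 4. It was lost in 5 of 19 alternatives, among them leaving out replicate 1 of 25 °C or replicate 2 or 3 of 40 °C, with an adjusted p of up to 0.0902. LOC4324398 was 5.74, 5.55 and 4.65 after 25 °C and 4.57, 4.64 and 4.37 after 40 °C, a difference of −0.79 (SE 0.21, adjusted p = 0.0182). That call was lost without replicate 1 or 2 of 25 °C or replicate 3 of 40 °C, with an adjusted p of up to 0.0841. The other probe set of LOC4324398 was dimmer, at 2.49 and 2.36, a difference of −0.13. In the other direction CSLC9 was 2.63, 3.62 and 3.56 after 25 °C and 4.11, 4.16 and 3.66 after 40 °C, higher in the second group without overlap (difference 0.71, SE 0.22, adjusted p = 0.0395). The CSLC9 call was lost in 10 of 19 alternatives, and with values below log2 4 set to 4 the difference was 0.09. LOC4325479 was 3.63, 3.63 and 3.96 at 0H after 25 °C and 4.32, 4.51 and 4.18 after 40 °C, with a difference of 0.59 (SE 0.12, adjusted p = 0.00392), and of 0.34 with values below log2 4 set to 4. The LOC4328720 and LOC4325479 calls held in all 19 alternatives. Of the 20 called members, 8 had all 6 arrays of 0H below log2 4, 6 had 1 group wholly below it, and 6 had neither.

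**Figure D4:**
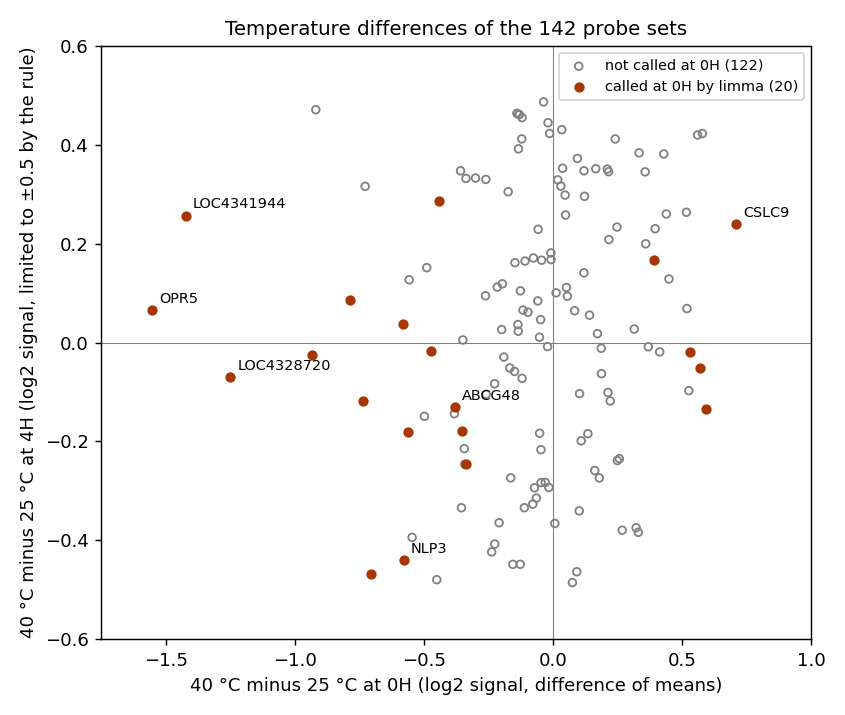
Difference of mean log2 signal between 40 °C and 25 °C at 0H (horizontal axis) and at 4H (vertical axis) for the 142 members. Filled points are the 20 called at 0H by limma, with those that have a short name or differ by more than 1 labelled. The vertical spread is limited to ±0.5 by the rule, while the horizontal one runs from −1.55 to 0.71.

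Other measures moved with temperature at 0H as well. Among the 25 °C arrays at 0H, replicate 1 held the highest signal in 78 of the 142 members, replicate 2 in 40 and replicate 3 in 24, and over all kept probe sets replicate 1 was highest in 39.9%. Replicate 1 was the highest of these in 10 of the 15 members called lower at 40 °C, and without it 7 were called lower. The difference between the 3′ and 5′ probe sets of the rice Gapdh control was 1.10 ± 0.17 after 25 °C and 1.98 ± 0.21 after 40 °C at 0H (SD, n = 3), and that of actin 3.85 ± 0.065 and 4.86 ± 0.17. A larger difference is read as RNA that is shorter or more degraded. The poly-A spike-in controls averaged 4.39 ± 0.64 and 7.48 ± 2.29. Of the 7 endosperm genes 3 were called between the temperatures at 0H, all 3 higher at 40 °C, and the log2 of the list's summed signal was 9.76 to 10.99 after 25 °C and 11.46 to 11.58 after 40 °C. RBCS, the marker of green tissue, was 4.75 to 5.27 after 25 °C and 5.37 to 5.68 after 40 °C at 0H and was called higher. The part of RNA quality, of replicate 1 and of RNA of other tissues in the 0H differences of the members was not tested.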

How the data were processed

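Total RNA of rice embryonic axes was measured on 12 Affymetrix Rice Genome Arrays, in 4 groups of 3 replicates taken from the sample titles. The deposited values are log2 signals per probe set that the authors made with GCRMA, per the submitters' processing notes (the range of the values shows the log base). GCRMA normalizes all arrays together, and the genome build and the version are not given in the sources used here. Stated amounts were 26 to 82 µg of RNA and 20 µg of cRNA. The median of each group over all probe sets was 1.51 to 1.57. Having 3 arrays per group limits the precision.

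The 123 control probe sets were left out, and 17650 of 57258 probe sets were kept, those above log2 4 in at least 3 arrays. limma 3.58.1 in R 4.3.3 was fitted to the group means of all 12 arrays (lmFit, contrasts, eBayes with a trend, 8 residual degrees of freedom), two-sided, with Benjamini-Hochberg adjustment over all kept probe sets. The fit was tested on simulated data. Python 3.11.15, pandas 2.3.3 and matplotlib 3.10.9 were used for tables and plots.

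The members, gene lists and tests were chosen with earlier results of these data known. Genes named were the 20 members with the largest mean rise, the 10 with the highest 4H level, up to 10 called each way at 0H whose groups did not overlap, 3 on each side of each limit of the rule, and, added later, every member with a usable short name. Those without a listed gene are mostly given as counts. The 31 lists were matched by gene symbol or synonym through RefSeq ASM3414082v1, with the probe set of highest mean per gene, and patterns were narrowed after their matches and values had been seen, to drop unrelated genes. The authors name no build, so no coordinates are given, and the table was used for names and gene order only. No promoter, protein or probe sequence was used here. The alternatives were quantile normalization, median centring of the rule, no filter or one at log2 6, values below log2 4 set to 4, other limits of the rule, eBayes without trend, only the groups at 0H, the replicate number as a block, and leaving out each array.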

Additional observations from a re-analysis of the deposited data

Results flagged for a closer look

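The limma fit of the difference between the rises called 25 of the 142 members, or 17.6%, against 65.0% of all kept probe sets. That difference is built from the means that the rule used. The call is therefore no test of the members and served only to choose which are listed. The values describe where the rises parted. The named members are given here as the rise at 40 °C minus the rise at 25 °C on the log2 scale, as differences of the deposited means. Where 0H signals lie below log2 4 they are no sizes of a change. The rises of OPR5, for example, are then known only as at least 5.83 at 25 °C and 5.90 at 40 °C.

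The rise was larger at 40 °C in LOC4341944 by 1.6807, in OPR5 by 1.6209, in LOC4349190 by 1.3904, in LOC4328720 by 1.1816 and in LOC4345736 by 1.0442. It was larger by 0.9081 in a probe set without a listed gene, by 0.8727 in LOC4324398, by 0.6168 in LOC107278748 and by 0.3969 in OsNrx1-2. The rise was smaller at 40 °C in LOC4325479 (−0.7277), LOC4330402 (−0.6963), another probe set without a listed gene (−0.6214), LOC4337915 (−0.5489), LOC4327287 (−0.4916) and ADC1 (−0.4529). Each value is that of 1 probe set, and other probe sets of a gene can differ. The brighter member probe set of LOC4341944 rose by 3.75 at 25 °C and 3.77 at 40 °C. That of LOC4328720 rose by 3.71 and 3.87.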

How the results depend on the processing

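The rule gave 142 members, of which 129 remained after quantile normalization (132 in all) and 140 after median centring (149). It gave 68 with values below log2 4 set to 4, 93 with a rise of at least 4 and 213 with one of at least 3. It gave 77 with a 4H difference under 0.25 and 241 with one under 1. Leaving out 1 array gave 137 to 149 members, and 106 of the 142 were in all 12 of these sets. The fewest, 123, remained without replicate 3 of 25 °C at 4H.

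At 0H 3129 kept probe sets were called between the temperatures, and 2039 to 3842 without 1 array, with the lower end set by leaving out any 0H array other than replicate 3 of 25 °C. Members called higher numbered 5, and 1 with no filter, 1 with only the groups at 0H, 1 with values below log2 4 set to 4, and 3 to 7 without 1 array. Members called lower numbered 15, and 9 with no filter, 7 with only the groups at 0H, 5 with values below log2 4 set to 4, and 7 to 23 without 1 array. They were 7 without replicate 1 of 25 °C at 0H, 8 without replicate 2 and 23 without replicate 3, and 9 and 8 without replicates 2 and 3 of 40 °C at 0H. The cause was not tested. Of the 0H differences recomputed for named members called there, none took the opposite sign, and several were 0 with values below log2 4 set to 4.

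The replicate numbers are not stated to pair the arrays, and the deviations of same-numbered 0H arrays correlated by 0.031, 0.096 and 0.139. With the replicate number as a block 3498 probe sets were called, with 7 members higher and 17 lower. Low signal limits the size of most rises, since 100 members lie below log2 4 in all 0H arrays.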
